A study of Homo sapiens with 6 samples.

Results

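The regions described here are the wide peaks, those of 700 bp or more from start to end, in 4 lists of genomic sites enriched after immunoprecipitation of PAI-1 (plasminogen activator inhibitor-1). They were chosen by their width alone, with identical intervals of a list counted once, and 4569 of 380031 peaks qualified, which is 1.20%. The study asked where nuclear PAI-1 associates with chromatin in human bladder cancer cells. RT112 and UM-UC-3 are established bladder cancer cell lines, and each gave 2 biological replicates of chromatin immunoprecipitated with the anti-PAI-1 antibody clone 3F2 (RT112 replicates 1 and 2, UM-UC-3 replicates 1 and 2). No treatment or genetic change is named in the labels, and 1 input library of each line, made without antibody, was not analysed here.

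PAI-1 is a serpin best known as a secreted inhibitor of the urokinase-type and tissue-type plasminogen activators, and it is abundant in many invasive tumors. In chromatin immunoprecipitation sequencing (ChIP-seq), DNA fragments held by the antibody are sequenced, and a peak is an interval where their reads pile up above a local background. A sequence-specific factor usually gives peaks a few fragments wide. A wider peak can hold several neighbouring pile-ups or a single broad one.

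The sequences below are the central 300 bases of 5 wide peaks among the members named by rule, read from the plus strand of the hg19 assembly, 5′ to 3′. They are shown because members differed widely in strand asymmetry, repetition and CpG content, and capitals mark the longest unbroken run of purines (A and G) or of pyrimidines (C and T). The first is an intergenic RT112 peak on chromosome 2 with the highest purine excess among the named peaks of that line (85.7% A or G), and the next lies in an intron of KSR2, a scaffold of the RAF and MEK kinases, and had the highest purine excess in UM-UC-3 (86.7% A or G). The one near the end of chromosome 12 had the most repeated sequence, with 85.7% of its 32-base words present more than once in the reference. The PCTP sequence had the most CpG dinucleotides (6). The last sequence is the center of the UM-UC-3 replicate 2 peak in an intron of CDH13. That peak belongs to a locus, joined from overlapping wide peaks, that was wide in all 4 libraries. Not every wide peak of the locus reaches the printed bases. The words "wide in 4 libraries" in the label of that sequence refer to the joined locus, not to the printed peak.
RT112 intergenic peak, chr2:134568851-134569150: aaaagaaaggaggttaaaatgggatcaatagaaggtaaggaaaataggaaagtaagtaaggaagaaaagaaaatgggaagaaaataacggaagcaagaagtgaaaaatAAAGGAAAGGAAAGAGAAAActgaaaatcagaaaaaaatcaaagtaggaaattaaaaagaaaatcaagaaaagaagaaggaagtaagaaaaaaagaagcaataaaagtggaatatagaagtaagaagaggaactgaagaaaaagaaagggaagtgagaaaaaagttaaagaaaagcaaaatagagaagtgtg
UM-UC-3 KSR2 peak, chr12:118111036-118111335: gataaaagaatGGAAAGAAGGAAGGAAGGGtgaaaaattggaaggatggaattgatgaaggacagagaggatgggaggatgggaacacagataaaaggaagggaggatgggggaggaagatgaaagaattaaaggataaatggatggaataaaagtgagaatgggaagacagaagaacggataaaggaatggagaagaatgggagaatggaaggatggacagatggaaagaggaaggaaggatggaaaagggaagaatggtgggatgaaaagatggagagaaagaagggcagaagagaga
RT112 chromosome 12 end peak, chr12:158462-158761: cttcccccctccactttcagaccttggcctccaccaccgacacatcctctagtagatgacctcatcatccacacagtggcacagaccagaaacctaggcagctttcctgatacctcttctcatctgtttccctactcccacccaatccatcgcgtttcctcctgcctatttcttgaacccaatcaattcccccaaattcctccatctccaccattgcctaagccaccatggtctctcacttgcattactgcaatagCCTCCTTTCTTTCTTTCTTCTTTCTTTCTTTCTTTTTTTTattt
UM-UC-3 PCTP peak, chr17:53914543-53914842: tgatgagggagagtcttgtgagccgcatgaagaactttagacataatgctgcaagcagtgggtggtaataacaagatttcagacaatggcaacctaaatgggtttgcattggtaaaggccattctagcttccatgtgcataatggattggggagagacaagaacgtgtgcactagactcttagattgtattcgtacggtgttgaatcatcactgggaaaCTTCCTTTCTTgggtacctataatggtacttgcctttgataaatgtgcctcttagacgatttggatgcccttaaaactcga
CDH13 peak wide in 4 libraries, chr16:83438647-83438946: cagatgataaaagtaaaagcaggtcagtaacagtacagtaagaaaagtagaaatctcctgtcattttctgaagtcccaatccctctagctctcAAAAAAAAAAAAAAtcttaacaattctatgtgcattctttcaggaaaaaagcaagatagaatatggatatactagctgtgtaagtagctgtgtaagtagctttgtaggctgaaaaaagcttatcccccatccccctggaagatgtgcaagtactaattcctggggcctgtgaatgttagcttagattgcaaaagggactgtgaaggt

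RT112 replicate 1 held 1597 wide peaks and RT112 replicate 2 held 382. UM-UC-3 replicates 1 and 2 held 1289 and 1301. The UM-UC-3 replicates were thus nearly equal, whereas the RT112 replicates differed 4.18-fold, and the RT112 values lay on both sides of those of UM-UC-3. Wide peaks made up 1.66% and 0.634% of the RT112 lists and 1.18% and 1.14% of the UM-UC-3 lists. The means were 990 ± 859 (SD, n = 2) in RT112 compared with 1295 ± 8.49 (SD, n = 2) in UM-UC-3, a difference of 305.5 peaks that was smaller than the spread between the RT112 replicates (exact permutation test, two-sided, p = 1; 2 against 2 libraries allow no p below 0.33). The difference was 913 without RT112 replicate 1, and the sign turned to -302 without RT112 replicate 2. RT112 replicate 2 also had the fewest peaks of any width (60227, against 96423, 109287 and 114094). Wherever 4 values follow without names, they stand in the order RT112 replicate 1, RT112 replicate 2, UM-UC-3 replicate 1 and UM-UC-3 replicate 2.

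The replicates of a line shared many identical intervals. Of all peaks, 8.14% in RT112 replicate 1 and 13.0% in RT112 replicate 2 had the same start and the same end as a peak of the other replicate, and the shares were 21.4% and 20.5% in UM-UC-3. Between cell lines these shares were 0.0237% to 0.0531%. Identical intervals made up 2.38%, 9.95%, 11.8% and 11.7% of wide peaks in RT112 replicates 1 and 2 and UM-UC-3 replicates 1 and 2, which are 38 intervals in RT112 and 152 in UM-UC-3, and 9.55%, 14.2%, 24.9% and 23.9% of narrower peaks of similar score. No wide peak was identical between cell lines. Whether replicates share reads was not tested, since the files hold intervals and no reads.

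Most wide peaks were only a little over the limit. Their median width was 781 and 761 bp in RT112 compared with 792 and 779 bp in UM-UC-3, against 293, 265, 274 and 270 bp over all peaks of the same libraries. Peaks of 1000 bp or more numbered 148, 22, 151 and 121, and the widest spanned 1861, 1318, 1663 and 1568 bp in the same order. The narrowest peak of a list was 235, 216, 215 and 211 bp, so the limit lay 2.98 to 3.32 times above it. On the 2 sides of the limit, the lists held 132, 47, 119 and 115 peaks from 690 up to 700 bp with median scores of 4.94, 6.56, 6.61 and 6.57, and 122, 38, 82 and 86 peaks from 700 up to 710 bp with median scores of 6.15, 6.56, 6.18 and 6.57.

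The deposited score, taken here as a negative log10 of a significance value, had a median of 6.15 and 6.56 in RT112 compared with 6.61 and 6.57 in UM-UC-3 among wide peaks, and 3.80, 4.09, 3.88 and 3.85 among narrower ones. Scores of 10 or more were held by 24.9%, 23.6%, 25.1% and 26.0% of wide peaks and by 9.83%, 8.65%, 8.97% and 8.98% of narrower peaks. Low scores were also present among wide peaks, with minima of 2.07, 2.37, 2.18 and 2.005. The single highest score of each RT112 list belonged to a wide peak (127 and 115), whereas in UM-UC-3 the best wide peaks (68.6 and 81.9) ranked 10 and 3. Because scores differed with width, the narrower peaks used below were weighted, library by library, to the score distribution of the wide peaks.

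A wide peak rarely carried more than 1 listed sub-peak. More than 1 line with the same interval was found for 89 of 1597 and 24 of 382 wide peaks in RT112 compared with 60 of 1289 and 79 of 1301 in UM-UC-3 (5.57%, 6.28%, 4.65% and 6.07%), and the largest number was 3. At matched scores 0.24%, 0.22%, 0.17% and 0.20% of narrower peaks had more than 1 line. Among wide peaks of 1000 bp or more the shares were 14.2%, 22.7%, 8.61% and 13.2%.

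Whether wide peaks recurred between replicates depended on what counted as recurrence. The midpoint of a wide peak lay in a peak of the other replicate for 32.2% and 73.8% of wide peaks in RT112 replicates 1 and 2 and for 65.6% and 66.7% in UM-UC-3 replicates 1 and 2. Narrower peaks of similar score reached 51.3%, 70.8%, 83.3% and 79.5%. Wide peaks were lower by 19.1, 17.7 and 12.8 percentage points in RT112 replicate 1 and UM-UC-3 replicates 1 and 2, and RT112 replicate 2 went the other way by 3.00 points. The mean difference was -11.6 ± 10.1 points (SD, n = 4 libraries; exact sign permutation test, two-sided, p = 0.25; adjusted over 10 comparisons, p = 0.625), where 4 libraries allow no p below 0.13. The 2 replicates of a line are compared with each other, so their values are not independent, although the test treats them as such. With at least 1 shared base in place of the midpoint, wide peaks were found more often in all 4 libraries: 65.4%, 91.9%, 90.2% and 89.2%, against 52.8%, 71.6%, 84.3% and 80.4% of narrower peaks (mean difference 11.9 points; exact sign permutation, p = 0.13). A wider interval also offers a larger target for a shared base. Its midpoint lies farther from its ends, so a narrower partner that shares 1 end can miss it. Both measures therefore depend in part on the width by which members were chosen.

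**Figure D1:**
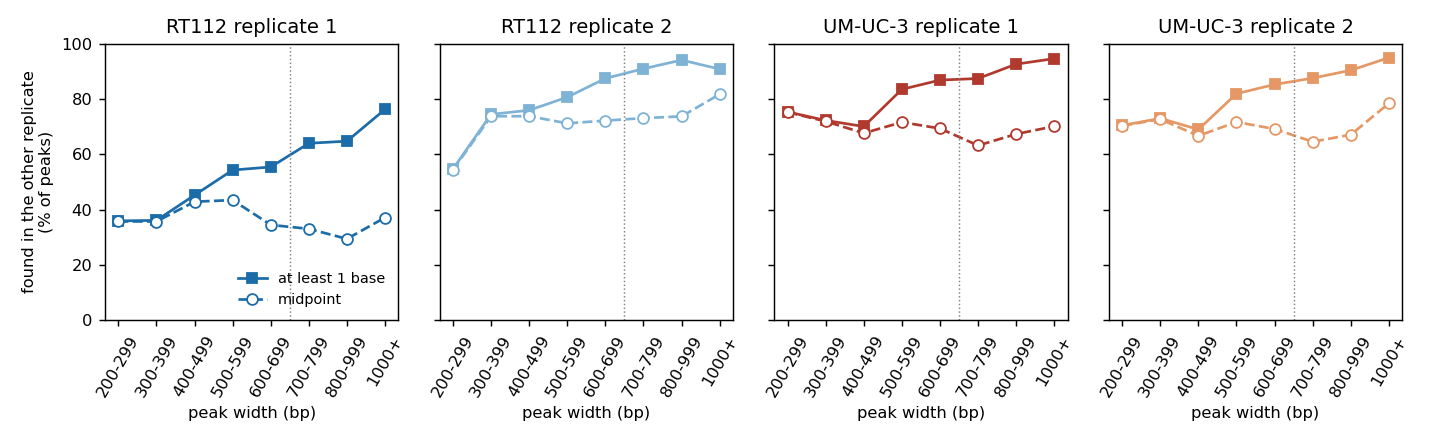
Share of peaks found in the other replicate of the same cell line (%) by peak width (bp) in each of the 4 libraries, for a shared base (squares) and for the midpoint (circles); the dotted line marks the 700 bp limit. Both curves run together below 500 bp and part above it, to 64% and 33% in the class from 700 to 800 bp of RT112 replicate 1.

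The gap between the 2 measures opened below the limit. No listed peak was shorter than 211 bp, so a partner that shares an end with a peak below 400 bp always covers its midpoint. Part of the gap therefore follows from width alone. In RT112 replicate 1 it was 0.193 points from 200 to 300 bp, 2.37 from 400 to 500 bp, 10.9 from 500 to 600 bp, 21.0 from 600 to 700 bp and 31 from 700 to 800 bp, each class without its upper bound. UM-UC-3 replicate 1 gave 0.138, 2.43, 11.9, 17.5 and 24.3 points over the same classes. The share of peaks with a base in a peak of the other replicate but without their midpoint there was 33.2%, 18.1%, 24.7% and 22.5% of wide peaks, and 1.48%, 0.816%, 1.05% and 0.923% of narrower peaks of similar score.

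The ends of the intervals showed the form this took. A single, narrower peak of the other replicate that shared 1 end with the wide peak to within 10 bp accounted for 36.6% and 30.1% of wide peaks in RT112 compared with 36.1% and 37% in UM-UC-3. Among narrower peaks of similar score this form made up 16.8%, 6.88%, 10.1% and 9.30%. Since members were chosen for their width, a partner narrower than the peak is in part fixed by that choice. The opposite form, a wider partner sharing 1 end, made up 1.25%, 13.9%, 5.90% and 6.84% of wide peaks. It made up 3.90%, 20.9%, 8.10% and 8.08% of narrower ones. Both ends matched to within 10 bp for 7.08%, 29.3%, 33.4% and 33.0% of wide peaks, against 27.2%, 37.3%, 63.8% and 60.7% of narrower ones. The narrower partner that shared 1 end had a median width of 355 and 518 bp in RT112 compared with 467 and 444 bp in UM-UC-3. Wide peaks that 2 or more peaks of the other replicate covered in pieces made up 4.88%, 2.62%, 6.21% and 3.46%. Wide peaks with no base in a peak of the other replicate made up 34.6%, 8.12%, 9.78% and 10.8%, the highest share being in RT112 replicate 1, whose partner list was the shortest.

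**Figure D2:**
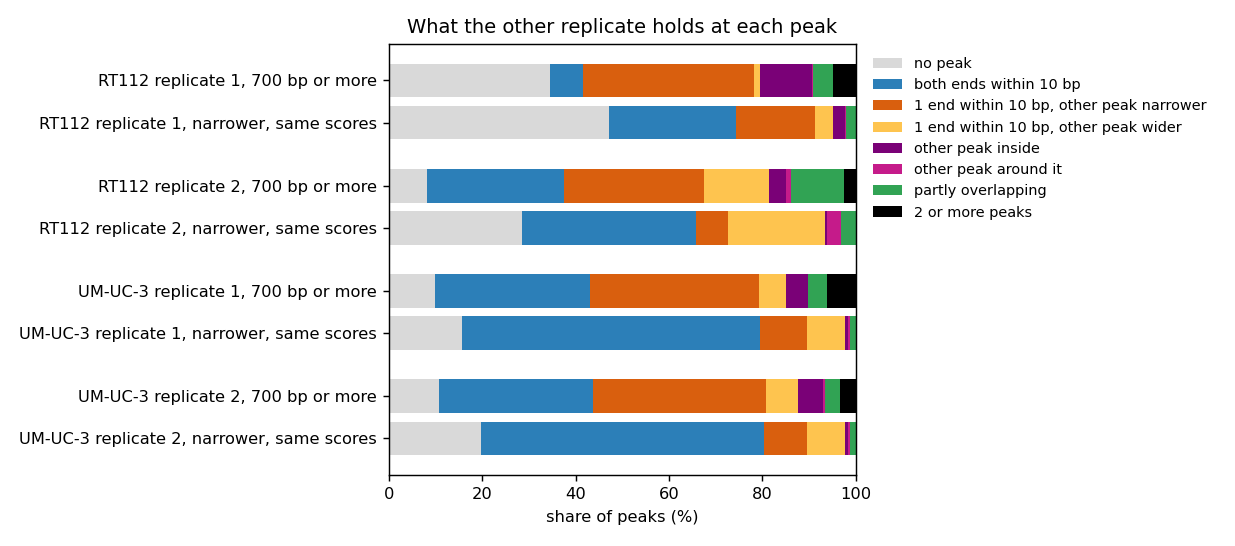
Share of peaks (%) by what the other replicate held at the same place, for peaks of 700 bp or more and for narrower peaks weighted to the same scores, in each library. The orange segments, a narrower peak that shares 1 end to within 10 bp, span 30.1% to 37% of wide peaks and 6.88% to 16.8% of narrower ones.

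Peaks wide in both replicates, with the midpoint in a wide peak of the other list, numbered 203 of 1597 and 204 of 382 in RT112 compared with 612 of 1289 and 611 of 1301 in UM-UC-3. They make up 12.7%, 53.4%, 47.5% and 47.0% of wide peaks. Their median scores were 8.75, 7.63, 8.09 and 8.05. Wide peaks without a base in the other replicate had median scores of 4.94, 5.29, 5.19 and 5.16, lower in each library, and median widths of 778, 742, 767 and 764.5 bp. Of the peaks wide in both replicates, 56.7% and 56.4% in RT112 compared with 69.8% and 69.9% in UM-UC-3 had widths that agreed to within 10 bp.

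Few wide peaks were shared between cell lines. The midpoint lay in a peak of the other line for 4.51% and 4.19% of wide peaks in RT112 compared with 4.11% and 4.0% in UM-UC-3. These shares were below the 6.41%, 7.65%, 5.70% and 5.58% of narrower peaks of similar score in each library. The mean difference was -2.13 ± 0.897 points (SD, n = 4; exact sign permutation test, two-sided, p = 0.13, the lowest available; adjusted over 10 comparisons, p = 0.417). The lines are compared with each other, so these 4 values are not independent either. The mean difference turned to 6.11 points when 1 shared base sufficed, with 14.1%, 16.5%, 13.5% and 13.8% of wide peaks. The shares of narrower peaks of similar score were then 8.59%, 9.77%, 7.61% and 7.51%, lower in each library. Joined where they shared a base, the wide peaks formed 3739 loci, of which 2917 were wide in 1 library, 816 in 2, 4 in 3 and 2 in all 4. Of these loci, 1775 were wide in RT112 compared with 1977 in UM-UC-3, and 13 were wide in both lines, which is 0.732% of the RT112 loci and 0.658% of the UM-UC-3 loci. A further 233 RT112 loci held a narrower UM-UC-3 peak, and 245 UM-UC-3 loci a narrower RT112 peak. The share wide in both lines requires width in each, and no such share was computed for narrower peaks.

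The CDH13 locus was wide in all 4 libraries. At chr16:83438370-83439874, in an intron of CDH13, a cadherin anchored to the membrane by a lipid, the widths were 881, 881, 737 and 854 bp and the scores 4.94, 4.09, 11.3 and 12.9. At this locus both UM-UC-3 scores lay above both RT112 scores. The interval joins the wide peaks of the libraries and is longer than any of them. The 4 loci wide in 3 libraries lay on chromosomes 7 (in CALD1, an actin-binding regulator of contraction), 8, 9 (in PHF24) and 13, with mean widths of 736 to 875 bp.

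Among peaks wide in both RT112 replicates, the widest by mean width was the purine-rich intergenic interval on chromosome 2 whose center is printed above, with 1652 and 1166 bp, scores of 21.0 and 19.9 and 3 sub-peaks in each replicate. The other 4 of the 5 widest spanned means of 1202.5 to 1349 bp and lay in TATDN1, between genes on chromosome 19, in an intron of a gene other than a protein-coding one on chromosome 3, and at a transcript start inside UBE3C, which encodes a ubiquitin ligase. In UM-UC-3 the widest was an intergenic interval on the X chromosome of 1506 bp in both replicates, with scores of 11.3 and 11.2. The next in UM-UC-3 lay in LRRC3C (1490 and 1491 bp), at 83.1 kb from MED10 (1663 and 1199 bp), in DAB1 (1425 bp in both) and on chromosome 1 at 91.6 kb from DUSP10 (1454 and 1381 bp).

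By score, intervals among the highest RT112 peaks wide in both replicates, a list that is not complete, lay at GRIPAP1 (scores 71.0 and 51), KSR2 (62.7 and 44.9), XPNPEP2 (44.7 and 37.1) and the end of chromosome 12 (39.2 and 35.9). In UM-UC-3 the highest was an interval on chromosome 17 at 77.4 kb from KIF2B (68.6 and 81.9), and others lay in KSR2 (39.8 and 50.4), PCTP (37.7 and 35.6) and FYB2 (41.9 and 29.5). The KSR2 intervals were at different positions, chr12:117907134-117907895 in RT112 and chr12:118110727-118111645 in UM-UC-3.

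Wide peaks lay mostly in introns and between genes. In RT112 766 of 1597 and 175 of 382 were intronic, and in UM-UC-3 589 of 1289 and 609 of 1301 (48.0%, 45.8%, 45.7% and 46.8%), close to the 45% of the reference that is intronic under the same ranking. Distal intergenic shares were 33.1%, 31.7%, 36.9% and 34.7%, against 34.5%, 34.7%, 34.6% and 34.7% of narrower peaks of similar score. Promoter shares, within 3 kb of any transcript start, were 14.8%, 17.0%, 14.5% and 14.6%, against 14.8%, 14.8%, 14.9% and 15%, and 18.4% of the reference. In or within 3 kb of protein-coding genes lay 47.0%, 44.5%, 43.9% and 46.0% of wide peaks and 45.5%, 45.4%, 45.6% and 45.7% of narrower ones. None of these 3 differences exceeded the spread between libraries: -0.520 ± 2.25, 0.349 ± 1.26 and -0.156 ± 1.41 points (SD, n = 4; exact sign permutation, p = 0.75, 0.875 and 0.875). In a 3′ UTR lay 15, 7, 7 and 9 wide peaks (0.939%, 1.83%, 0.543% and 0.692%), against 0.972%, 0.902%, 0.923% and 0.957% of narrower peaks of similar score.

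The protein-coding genes with a locus wide in both replicates numbered 89 in RT112 compared with 258 in UM-UC-3. The loci wide in both replicates numbered 204 and 613. Median lengths of these genes were 191 and 187 kb, against 27.2 kb over all protein-coding genes. A long gene offers any set of intervals a larger target, and genes hit by as many narrower peaks were not compared. No gene held more than 3 loci wide in both replicates. In RT112 CDH13 (1174 kb) held 3, with 4 wide and 96 narrower peaks in replicate 1 and 3 and 63 in replicate 2. AMMECR1, RTL9 and GNG5B overlap on the X chromosome, so their 2 loci each cannot be assigned to 1 of them. The other RT112 genes of the rule held 1 locus each and ranked by wide peaks per Mb of gene, an order that places short genes first: RAB9B, ZNF154, KIR3DL2, RDH11, PHF24 and ERMAP, of which KIR3DL2 belongs to a family of near-identical receptor genes. In UM-UC-3 CDH18, a cadherin (1105 kb), and DAB1, an adaptor of reelin signalling (1552 kb), held 3 loci each. DAB1 held 3 wide peaks in each replicate beside 131 and 126 narrower ones. TBX15 (a T-box transcription factor), BBS2 (a subunit of the ciliary BBSome), NOS1 (neuronal nitric oxide synthase), KCNIP1 (a potassium channel subunit), SLC44A5, PPP2R2B (a regulatory subunit of protein phosphatase 2A) and CTNND2 (a catenin) were among the genes that held 2 each.

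Wide peaks were spread thinly over the genome but less evenly than narrower peaks of similar score. Of 2869 bins of 1 Mb with at least 500 kb of known bases, 60.7%, 88.5%, 66.2% and 65.7% held no wide peak, and the fullest bin of a library held 5, 3, 6 and 6. The probability that 2 wide peaks of a library fell in the same bin was 4.9e-04 and 6.5e-04 in RT112 compared with 4.9e-04 and 4.6e-04 in UM-UC-3, which is 1.40, 1.85, 1.41 and 1.32 times that of an even spread over known bases. The same ratio was 1.18, 1.22, 1.12 and 1.12 for narrower peaks of similar score. The log2 ratio of wide to narrower was above 0 in 4 of 4 libraries, with a mean of 0.36 ± 0.17 (SD, n = 4; exact sign permutation, p = 0.13, the smallest possible; adjusted over 10 comparisons, p = 0.417). Replicates of a line share many sites, so these 4 values are not fully independent. The bin of a wide peak also held more narrower peaks, 40.1, 26.6, 44.5 and 46.6 against 38.1, 24.7, 41.7 and 43.5 for narrower peaks themselves, a mean difference of 2.44 ± 0.652 (exact sign permutation, p = 0.13; adjusted p = 0.417). In a more local window, 37.6%, 32.7%, 36.7% and 38.2% of wide peaks had another peak midpoint within 5 kb, against 34.0%, 24.1%, 34.9% and 36.2% of narrower peaks of similar score.

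The bins with the most wide peaks summed over replicates were, in RT112, chromosome 20 at 59 to 60 Mb with 7 (CDH4), and with 6 each chromosome 8 at 109 to 110 Mb (EIF3E and RSPO2), chromosome 20 at 20 to 21 Mb (CFAP61), chromosome 5 at 31 to 32 Mb (DROSHA and PDZD2) and chromosome 5 at 33 to 34 Mb (ADAMTS12). In UM-UC-3 they were chromosome 1 at 71 to 72 Mb with 9 (PTGER3, a prostaglandin E receptor), chromosome 3 at 134 to 135 Mb with 8 (CEP63 and EPHB1), the X chromosome at 20 to 21 Mb with 8 (MAP7D2), chromosome 1 at 70 to 71 Mb with 8 (LRRC7) and chromosome 5 at 13 to 14 Mb with 7 (DNAH5). Both replicates contributed to each of these bins, and a site wide in both counts once for each. In the order given, the RT112 bins held 5, 6, 5, 5 and 4 separate loci and the UM-UC-3 bins 6, 6, 6, 4 and 7. By chromosome, and relative to the share of wide peaks in the whole library, chromosome 5 stood at 114%, 128%, 128% and 127% and chromosomes 4 and 13 at 65.6%, 21.2%, 75.2% and 69.0% and at 71.4%, 61.4%, 67.2% and 52.9%. Chromosome 12 also stood above 100%, and chromosomes 2, 7, 10 and 22 below it, in all 4 libraries. Chromosome 20 differed between lines, with 145% and 179% in RT112 compared with 79.1% and 109% in UM-UC-3. Others did so too, such as the X chromosome with 121% and 137% in RT112 compared with 76.8% and 78.0% in UM-UC-3.

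**Figure D3:**
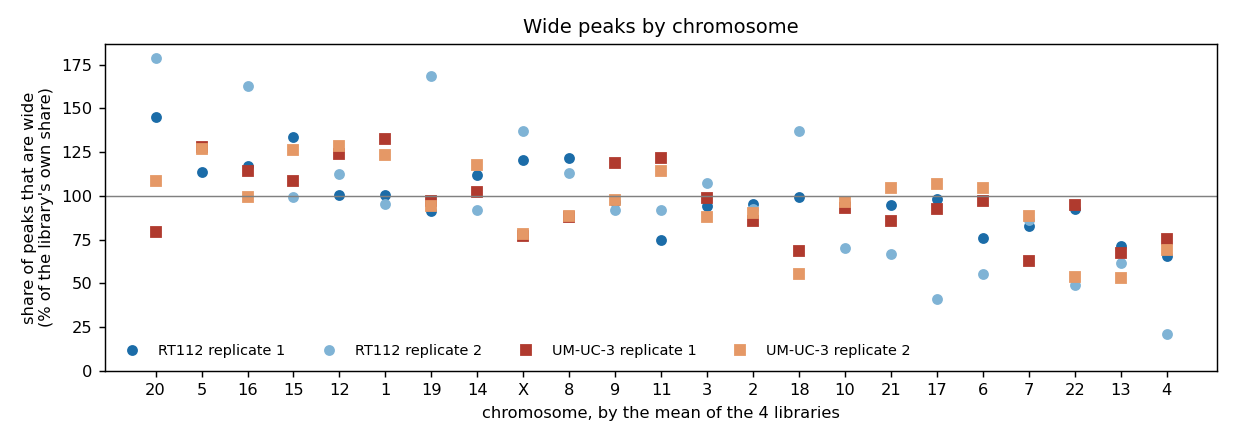
Share of a chromosome's peaks that were wide, as a percentage of the share in the whole library, by chromosome for the 4 libraries; circles are RT112 and squares UM-UC-3, and the line at 100 is the library's own share. Chromosomes 5 and 12 lay above the line and chromosomes 2, 4, 7, 10, 13 and 22 below it in 4 of 4 libraries.

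In sequence, the GC content of the central 300 bases averaged 43.3% and 43.9% in wide peaks of RT112 and 41.2% in both lists of UM-UC-3, against 42.6%, 43.0%, 41.2% and 41.2% in narrower peaks of similar score. The wide peaks were 0.740 ± 0.139 points (SD, n = 2) higher in RT112 and differed by -0.0109 points in UM-UC-3, and over all libraries the difference was 0.364 ± 0.441 points (exact sign permutation, p = 0.375; adjusted p = 0.75). Repeated 32-base words made up 12.1%, 12.3%, 11.8% and 12.5% of the center of wide peaks and 11.3%, 10.8%, 12.6% and 12.9% of that of narrower ones (difference 0.246 ± 1.09 points, p = 0.75 by the exact sign permutation). Within 1 Mb of an assembly gap lay 9.08%, 11.3%, 7.68% and 7.38% of wide peaks, against 8.77%, 8.95%, 8.43% and 8.44% (difference 0.202 ± 1.52 points, exact sign permutation, p = 0.875). Within 5 Mb of a gap the mean difference was 2.52 points, in the same direction in 4 of 4 libraries (exact sign permutation, p = 0.13, the lowest available).

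The imbalance between strands was larger in wide peaks than in narrower peaks of similar score, but peaks just below the limit came close to it. Purine skew, the absolute difference between purine and pyrimidine counts as a percentage of the window, averaged 15.3%, 17.3%, 14.4% and 14.3% in wide peaks and 13.4%, 14.4%, 13.3% and 13.4% in narrower peaks of similar score, higher in 4 of 4 libraries by 1.69 ± 0.915 points (exact sign permutation, p = 0.13, the smallest possible). GC skew, the absolute difference between G and C as a percentage of their sum, averaged 17.6%, 19.7%, 15.1% and 15% against 14.8%, 15.6%, 14.0% and 14.0% (2.25 ± 1.46 points, p = 0.13 by the same exact permutation). Wide peaks with a purine skew of 30% or more, such as the KSR2 and chromosome 2 sequences printed above, made up 8.64%, 14.4%, 6.90% and 6.92%, against 6.29%, 8.21%, 5.66% and 5.80% of narrower ones. Runs of 8 CA units were found in 0.814%, 1.57%, 0.698% and 0.692% of wide peaks and in 0.955%, 1.12%, 0.877% and 0.896% of narrower ones. The 2 skew measures and the counts of runs and neighbours within 5 kb were among 20 measures added after other values had been seen, and adjusted over these 20 the p of both skews was 0.227 by the exact sign permutation.

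**Figure D4:**
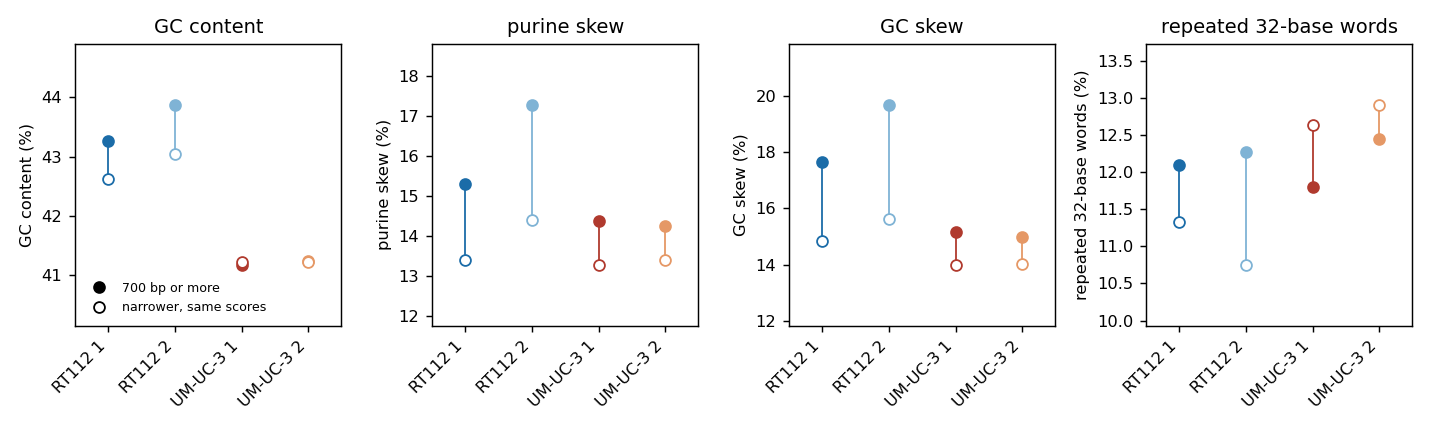
GC content, purine skew, GC skew and repeated 32-base words (all %) of the central 300 bases for peaks of 700 bp or more (filled) and narrower peaks weighted to the same scores (open) in the 4 libraries; the axes do not start at 0. Both skews were higher in wide peaks in every library, whereas repeated words were higher in RT112 and lower in UM-UC-3.

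Genes that the study singled out were examined by whether a wide peak had its midpoint in the gene or within 3 kb of it, which held for 3.68%, 0.858%, 2.72% and 2.87% of 20163 protein-coding genes. Of the 12 genes with primers for ChIP-PCR, DOCK2, an exchange factor for the RAC GTPase, held a wide peak, in an intron in both RT112 replicates (747 and 831 bp, scores 8.75 and 7.90), and none of the 12 held one in UM-UC-3. Of 57 genes on both gene lists of the study, 9, 2, 3 and 5 held a wide peak, and these lists were drawn in part from the same libraries, so the counts are not independent of them. They included NTRK2, a neurotrophin receptor kinase, with the same 721 bp interval in both RT112 replicates (scores 26.1 and 17.1). CACNA1C, a subunit of a calcium channel, held intervals of 922 and 924 bp in UM-UC-3 (scores 30 and 26.2). RT112 replicate 1 had a CACNA1C wide peak at another position (774 bp, score 13.0). The median length of all 57 genes was 33.6 kb, against 27.2 kb over all protein-coding genes. Those of the 57 with a wide peak were longer, from 53.7 kb (C2orf73) to 727 kb (CACNA1C). Of 24 genes recurrently altered in bladder cancer, PIK3CA held a wide peak in RT112 replicate 1 (746 bp, score 2.76), and none of the 24 held one in the other 3 libraries.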

How the data were processed

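Per the labels, ChIP used an anti-PAI-1 antibody and a magnetic-bead kit. The submitters' processing notes name FastQC, Trimmomatic, Bowtie 1.1.1, Picard, MACS2 2.1.0.20140616 and hg19. Their threshold and use of the input are not given in the sources used here. The authors deposited 1 peak list per replicate, with start, end and a score that is a −log10 of a p- or q-value; which of them is not given. Depth is stated in the methods only as an average over samples, not for each library. Lines with the same interval were counted once, with the higher score. GRCh37 and GENCODE release 44 lifted to it gave sequence and genes, with locations ranked promoter, UTR, exon, intron, downstream, distal. Narrower peaks were weighted to the wide peaks' scores in up to 20 classes (13 to 15 after ties). Python 3.11.15 with NumPy 2.4.6, pandas 2.3.3, Numba 0.67.0 and Matplotlib 3.10.9 ran the scripts, tested on simulated data. Exact permutations were over libraries, which the tests treat as independent although the 2 replicates of a line share many sites. Named peaks were the 5 widest and 5 highest-scoring of those wide in both replicates of a line and loci wide in at least 3 libraries; named bins and genes held the most wide peaks or such loci. Members, lists and measures were chosen with earlier results of these data known. The named peaks, loci and genes are incomplete, since a few items are not reported here.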

Additional observations from a re-analysis of the deposited data

Results flagged for a closer look

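In 4 measures, the wide peaks of both RT112 libraries lay on one side of the narrower peaks of similar score and those of both UM-UC-3 libraries on the other. The values are the UM-UC-3 difference less the RT112 difference, in percentage points. The distal intergenic share gave 3.38 (-2.21 in RT112, 1.17 in UM-UC-3). The promoter share gave -1.53 (1.11 and -0.416). Repeated 32-base words gave -1.78 (1.14 and -0.646), and the share within 1 Mb of an assembly gap gave -2.21 (1.31 and -0.905). Some single libraries differed little. The promoter difference was 0.0203 in RT112 replicate 1 and 2.21 in replicate 2, and the gap difference 0.311 and 2.31. In UM-UC-3 the distal intergenic difference was 2.26 in replicate 1 and 0.0757 in replicate 2. These measures were picked because the lines lay on opposite sides. With that choice an exact permutation test of 2 against 2 libraries can only give p = 0.33, the smallest possible. The difference between the lines was therefore not tested.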

How the results depend on the processing

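Of 132 alternative values for 11 comparisons, 108 kept their direction and 24 reversed. Pairing the replicates by number as a block left the difference in the number of wide peaks at 305.5, and over 2869 bins the deviations of same-numbered replicates had a correlation of -0.020, so the numbers were not taken to pair samples. The 2 clustering measures kept their direction under all alternatives that gave a value. With 1 shared base in place of the midpoint, sharing between replicates was 11.9 points and between cell lines 6.11. With a limit of 600 bp the distal intergenic difference was 0.0732, the promoter difference -0.114 and repeated words -0.219. The distal intergenic difference was 0.314 at 800 bp and 1.23 at 1000 bp. At 1000 bp sharing between cell lines was -0.102, the share in or near genes 1.07, GC content -0.396 and the share near gaps -1.40. For the widest 2% the distal intergenic, promoter and repeated-word values were 0.295, -0.160 and -0.0699. The distal intergenic difference was 0.156 where noncoding genes were left out. Away from gaps, the promoter, near-gene and repeated-word values were -0.0543, 0.584 and -0.155. Leaving out 1 library gave -302 to 913 peaks, and -1.45 to 0.322 for distal intergenic, -0.270 to 0.605 for promoter, -0.727 to 0.341 near genes, -0.176 to 0.606 for repeated words and -0.500 to 0.623 near gaps. The last 5 ranges crossed 0 without RT112 replicate 2, and the near-gene value also without UM-UC-3 replicate 1. The cause was not tested. Pair probability at 1000 bp gave no value, since no bin of RT112 replicate 2 held 2 such peaks. The number of libraries, 2 for each line, limits every test, and depth is stated only as an average over samples. Within 5 Mb of gaps the gap difference was 2.52 points, over the 0.202 points within 1 Mb.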
